A study of Mus musculus with 74 samples.

Results

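The genes described here are 10 members of the Rb and p53 pathways, measured by bulk RNA-seq in mouse mammary tumors at the primary site (PT) and in the lung (Lung mets). They were chosen by gene name and no cutoff on a measured value was used, but earlier results of these data were known. The genes are Rb1, Rbl1, Rbl2, Trp53, Cdkn1a, Cdkn2a, Cdkn2c, Mdm2, Ccnd1 and Myc. Each of the 10 was found once in each of 5 tables of group means, which held 18208 genes for Her2, 19320 for C3Tag, 17270 for BALB, 17351 for SEAGN and 17829 for the AKR-named table. All 10 were also listed in the 6th table, that of the Myc model, which holds no group means and whose values are not used here.

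The samples numbered 74. All animals were transgene-positive females, and the transgenes were driven by the MMTV or the C3(1) promoter, which are active in mammary epithelium but not in it alone. The Her2 model carries MMTV-neu (labelled MMTV-Her2), the C3Tag model carries C3(1)-TAg (labelled C3TAg) and the Myc model carries MMTV-Myc, each on FVB/NJ. The BALB, SEAGN and AKR groups are F1 progeny of FVB MMTV-PyMT males and females of the BALB/cJ, SEA/GnJ or AKR/J strain. There were 6 PT and 6 Lung met samples in each group, apart from 7 and 7 in C3Tag. The methods state that the primary tumors of 1 animal were combined, that single tumors in the Her2, C3Tag and Myc models were resected and the animals aged on, and that PyMT animals were aged to humane endpoint. No age is given for a single animal. Of 36 PyMT-F1 samples, 23 carry a genotype label that names another strain than their title, so which animals stand behind the BALB, SEAGN and AKR-named means could not be settled from the labels. The AKR-named table raises a further doubt. For 3 genes set side by side, its fold changes equalled those that the study's supplement lists under another strain, so its strain is treated as unknown and its values are given under that name only.

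The tables hold 1 mean per gene and tissue, made by the authors from normalized counts, and no value of a single sample. No SD, n per gene or test can therefore be attached to any value, and none of the differences was compared with the spread between animals. A difference is given as the log2 ratio of the Lung met mean to the PT mean, and a gene is called higher or lower when the ratio is at least 1.5 in either direction, which is a statement of size and not of significance. Levels are given as the authors' normalized mean, whose scale differs between tables, or as a percentile among all genes of the same table. The median log2 ratio over all genes lay between 0.00 and 0.03 in the 5 tables. In bulk tissue, fewer cells of a type and less RNA per cell cannot be told apart.

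The retinoblastoma protein (Rb1) and its relatives p107 (Rbl1) and p130 (Rbl2), known as pocket proteins, bind E2F transcription factors and hold back genes of DNA replication until cyclin D1 (Ccnd1) with its kinases phosphorylates them. Kinase inhibitors oppose that step, among them p18 (Cdkn2c), p16 (from Cdkn2a) and p21 (Cdkn1a). The p53 protein (Trp53) is a stress-activated transcription factor that switches on Cdkn1a and Mdm2. Mdm2 in turn degrades p53, and Arf, the other product of Cdkn2a, blocks Mdm2. Myc is a growth-promoting transcription factor that induces Arf in many cells. The large T antigen carried by C3Tag binds and disables both the pocket proteins and p53, whereas neu and the polyoma middle T antigen of PyMT act through membrane signaling.

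Promoter sequences are shown for 3 members, picked after their values were seen, whose means differ widely between tables or tissues and whose window held a motif of the pathway itself. RefSeq windows on GRCm38.p6, from 250 bases before to 50 after a transcription start, were found for 7 of the 10 members (10 windows). Both strands were searched for the E2F letters TTTCCCGC, TTTGGCGC, TTTCGCGC and TTTGCCGC, which occur in 2.26% of 32851 promoter windows of the same length. Of the members' 10 windows, 2 held them, namely the upstream start of Cdkn2a, from which Arf is made, and the start of Rbl1. The downstream Cdkn2a window (chr4:89282143-89282442) held none. The E2F letters begin 99 bases before the start in Cdkn2a and 18 bases before it in Rbl1, and stand in capitals in these stretches of the minus strand.

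Cdkn2a, chr4:89294671-89294758: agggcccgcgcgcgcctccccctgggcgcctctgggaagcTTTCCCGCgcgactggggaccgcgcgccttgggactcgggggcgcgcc

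Rbl1, chr2:157204505-157204592: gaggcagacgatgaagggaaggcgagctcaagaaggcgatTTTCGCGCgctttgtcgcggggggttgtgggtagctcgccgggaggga

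The p53 decamer, searched by its consensus, occurs in 8.36% of all windows and in 3 of the members' 10, those of Cdkn1a, Mdm2 and Trp53. The Cdkn1a window on the plus strand held it at 2 places, 73 and 51 bases before the start, shown in capitals. This start is the upstream one of 2 that RefSeq gives for Cdkn1a, and the window of the downstream start (chr17:29093519-29093818) held none.

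Cdkn1a, chr17:29090866-29090977: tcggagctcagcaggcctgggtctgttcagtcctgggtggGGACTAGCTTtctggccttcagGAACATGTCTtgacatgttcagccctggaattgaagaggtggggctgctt

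The E-box CACGTG, the letters bound by Myc with Max, occurs in 7.15% of all windows and in 2 of the members' 10, 1 each of Cdkn2c and Trp53. Each match is a description of letters and was not tested as a binding site.

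Between Lung met and PT, the kinase inhibitors Cdkn1a and Cdkn2a and the cyclin Ccnd1 differed most, while the pocket proteins, Trp53, Mdm2 and Myc mostly stayed within a ratio of 1.5. In Her2, no member was higher and 2 were lower (Cdkn1a and Cdkn2a), beside 5.42% and 3.62% of all genes. In C3Tag, 2 were higher (Cdkn1a and Ccnd1) and none lower, beside 14.0% and 5.61%. The same 2 genes were higher in BALB, with none lower, beside 6.2% and 6.76% of all genes. In SEAGN, Cdkn1a, Cdkn2a and Ccnd1 were higher and none was lower, beside 7.11% and 8.32%. In the AKR-named table, 2 were higher (Cdkn1a and Cdkn2a) and 2 lower (Rb1 and Cdkn2c), beside 13.6% and 6.32%. With a ratio of at least 2 in either direction the counts were 1 of 10 in Her2 beside 3.81% of all genes, 1 in C3Tag beside 9.12%, 0 in BALB beside 4.67%, 2 in SEAGN beside 6.07% and 2 in the AKR-named table beside 9.05%. The members' median log2 ratio was −0.12 in Her2, −0.08 in C3Tag, 0.10 in BALB, 0.22 in SEAGN and 0.26 in the AKR-named table.

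**Figure D1:**
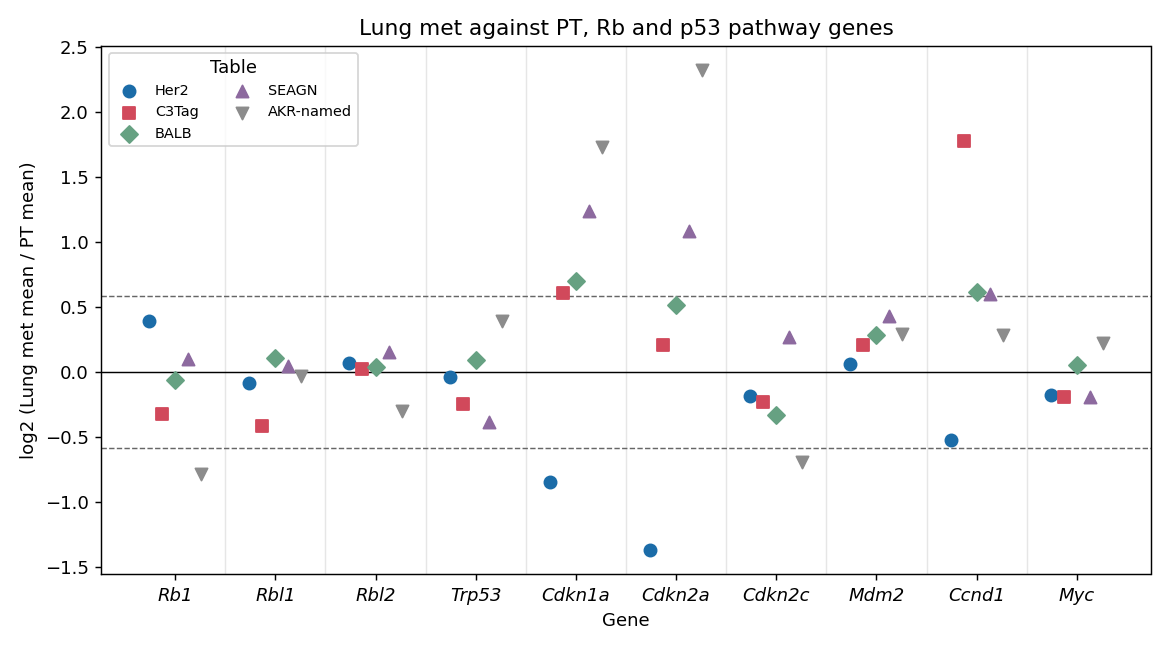
The vertical axis is the log2 ratio of the Lung met mean to the PT mean, each point is 1 gene in 1 table, and dashed lines mark a ratio of 1.5. Cdkn1a and Cdkn2a spread most, from −0.84 to 1.74 and from −1.37 to 2.33, and Her2 is the lowest point of both.

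Among the pocket proteins, Rb1 (ENSMUSG00000022105, chr14:73183673-73325822, minus strand) had a PT mean of 1569 and a Lung met mean of 2067 in Her2. The means were 1717 and 1378 in C3Tag, 1441 and 1382 in BALB, 1492 and 1605 in SEAGN, and 2821 and 1641 in the AKR-named table. The log2 ratios were 0.40, −0.32, −0.06, 0.11 and −0.78 in that order. Rb1 was thus called only in the AKR-named table, where it was lower in Lung met and only 3.35% of genes had a lower ratio. Its PT percentile was 77.7 in Her2, 82.4 in C3Tag, 94.8 in BALB, 95.7 in SEAGN and 88.7 in the AKR-named table. BALB and SEAGN carry gene identifiers of a BALB/cJ annotation and the other tables those of the reference annotation, so for Rb1 and every other gene the annotation cannot be told apart from the cross in a comparison of levels between these sets of tables. Rb1 also overlaps Lpar6 and Rcbtb2 on the opposite strand.

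Rbl1, the pocket protein gene that E2F itself is known to switch on (ENSMUSG00000027641, chr2:157145893-157204534, minus strand), showed the most uneven PT level of the pocket proteins. Its PT percentile was 89.8 in C3Tag, against 61.4 in Her2, 62.2 in BALB, 62.2 in SEAGN and 55.1 in the AKR-named table. The other 4 tables thus lay close together and C3Tag lay above them. Relative to the geometric mean of 8 reference genes of the same table, the PT level of Rbl1 in C3Tag was above that of the other tables by 1.68 to 2.70 on the log2 scale. Lung met differed little from PT. The PT and Lung met means were 781 and 740 in Her2, 2687 and 2019 in C3Tag, 226 and 244 in BALB, 211 and 219 in SEAGN, and 612 and 601 in the AKR-named table, with log2 ratios from −0.41 in C3Tag to 0.11 in BALB. The Rbl1 window held the E2F letters printed above and the Rbl2 window none. The windows of Cdkn2c, also at its highest PT percentile in C3Tag, held none either. Whether the letters bear on these levels was not tested.

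Rbl2 (ENSMUSG00000031666, chr8:91070057-91123844, plus strand), whose protein p130 prevails in resting cells, did not share that pattern. Its PT percentile was 73.0 in C3Tag, below the 79.9 of Her2, 78.8 of BALB and 79.1 of SEAGN and above the 67.4 of the AKR-named table. The log2 ratios were 0.07, 0.03, 0.04, 0.16 and −0.30 in Her2, C3Tag, BALB, SEAGN and the AKR-named table, and none reached the ratio of 1.5. Per kilobase of exon, Rbl2 was the lowest of the 10 members in C3Tag PT, at 144, while Rbl1 was the lowest in BALB at 37.7, in SEAGN at 35.2 and in the AKR-named table at 102.

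Cdkn2a (ENSMUSG00000044303, chr4:89274471-89294653, minus strand), which encodes p16 and Arf from separate starts, gave the widest differences of all 10 members in both comparisons. Its PT mean was 71.0 in Her2, 2615 in C3Tag, 89.7 in BALB, 42.4 in SEAGN and 199 in the AKR-named table. The corresponding PT percentiles were 26.9, 89.6, 42.7, 31.1 and 37.3. C3Tag therefore stood alone, with a level near that of the reference genes (a log2 difference of 0.00 from their geometric mean), and exceeded the other tables by 3.03 to 5.47 on that log2 scale. Per kilobase, Cdkn2a was second only to Myc among the members in C3Tag PT, at 2232 against 3449, but last in Her2, at 60.6. The counts are per gene and do not separate p16 from Arf.

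In Lung mets the Cdkn2a mean was 27.5 in Her2, 3021 in C3Tag, 128 in BALB, 90.3 in SEAGN and 1001 in the AKR-named table. The log2 ratios to PT were −1.37, 0.21, 0.52, 1.09 and 2.33. Her2 was thus the only table with a lower mean in Lung met, and there only 0.752% of genes had a lower ratio. The AKR-named table showed the opposite, with a 5.02-fold higher mean in Lung met. C3Tag, whose PT level was already high, changed least, and BALB stayed short of the ratio of 1.5.

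Cdkn2b, the neighbouring gene that encodes p15, gave log2 ratios of 0.06 in Her2, 0.28 in C3Tag, 0.54 in BALB, 1.27 in SEAGN and 1.55 in the AKR-named table. It was higher in Lung met in the same 2 tables as Cdkn2a, but had no lower mean in Her2, where its means were 81.2 in PT and 84.5 in Lung met. Its PT percentile was 64.9 in C3Tag against 28.5 to 40.3 in the other tables.

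Cdkn2c (ENSMUSG00000028551, chr4:109660876-109667189, minus strand), which encodes p18, was likewise at its highest PT percentile in C3Tag, at 80.2, against 52.2 in Her2, 56.2 in BALB, 51.7 in SEAGN and 58.1 in the AKR-named table. Relative to the reference genes, C3Tag exceeded the others by 1.30 to 1.88 on the log2 scale. The PT and Lung met means were 500.3 and 442 in Her2, 1533 and 1308 in C3Tag, 174 and 139 in BALB, 133 and 161 in SEAGN, and 708 and 438 in the AKR-named table. The last of these pairs, a log2 ratio of −0.69, was the only one called. SEAGN was the only table in which Cdkn2c was above 0, at 0.27.

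Cdkn1a (ENSMUSG00000023067, chr17:29090976-29100727, plus strand), which encodes p21, was higher in Lung met in 4 of 5 tables and lower in the remaining one. The PT and Lung met means were 1010 and 564 in Her2, 1860 and 2834 in C3Tag, 976 and 1590 in BALB, 704 and 1666 in SEAGN, and 2091 and 6961 in the AKR-named table. The log2 ratios were −0.84, 0.61, 0.70, 1.24 and 1.74. In Her2 only 1.88% of genes had a lower ratio, and in SEAGN it exceeded that of 98.0% of genes. The C3Tag value lies just inside the limit, at a ratio of 1.52. In PT the percentile of Cdkn1a ran from 67.5 in Her2 to 90.8 in BALB, with C3Tag at 84.0, so C3Tag did not stand apart for this inhibitor as it did for Cdkn2a and Cdkn2c.

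**Figure D2:**
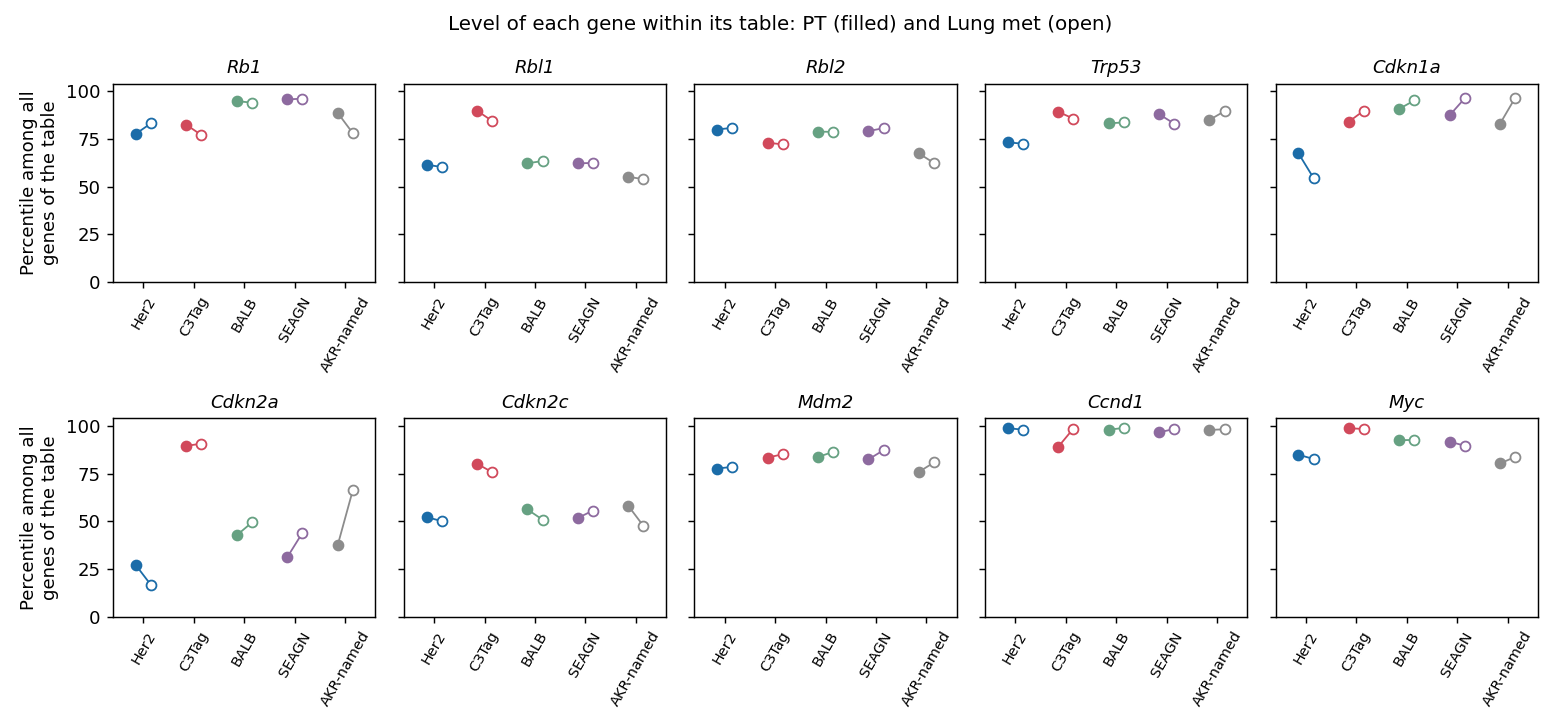
Each panel is 1 gene, the vertical axis is its percentile among all genes of a table, and filled and open circles are the PT and Lung met means of that table. Cdkn2a at 89.6, Rbl1 at 89.8 and Cdkn2c at 80.2 stand above the other tables in C3Tag PT, whereas Rbl2 at 73.0 does not. Mdm2 runs only from 75.9 to 83.8 in PT.

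The rest of the inhibitor list, beside Cdkn2b, consisted of Cdkn1b (p27), Cdkn1c (p57) and Cdkn2d, an inhibitor of the p16 family. Cdkn1b and Cdkn1c passed the ratio of 1.5 in C3Tag alone and Cdkn2d in no table. In C3Tag, Cdkn1b, with a PT percentile of 98.5, had means of 8163 in PT and 4136 in Lung met, a log2 ratio of −0.98. Cdkn1c had means of 178 and 441 and a log2 ratio of 1.31. The 2 genes thus went in opposite directions in the same tissues. The whole list of 7, members included, had 0 higher and 2 lower in Her2, 2 and 1 in C3Tag, 1 and 0 in BALB, 3 and 0 in SEAGN, and 3 and 1 in the AKR-named table. The calls of Cdkn1a, Cdkn2a and Cdkn2c are thus counted here again. Of all genes, 5.42%, 14.0%, 6.2%, 7.11% and 13.6% were higher in these tables, in that order. The shares lower were 3.62%, 5.61%, 6.76%, 8.32% and 6.32%.

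Ccnd1 (ENSMUSG00000070348, chr7:144929931-144939925, minus strand), which encodes cyclin D1 and overlaps LTO1 on the opposite strand, stood higher among the genes of every other table than in C3Tag. Its PT percentile was 98.9 in Her2, 98.0 in BALB, 96.7 in SEAGN and 97.9 in the AKR-named table, but 89.1 in C3Tag. Per kilobase it was the highest of the 10 members in PT of those 4 tables, and only the 5th in C3Tag. Relative to the reference genes, C3Tag PT lay below every other table, by −1.38 to −2.26 on the log2 scale.

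In C3Tag Lung mets that gap closed. The Ccnd1 mean was 2543 in PT and 8743 in Lung met, a ratio of 3.44 and a log2 ratio of 1.78, and its percentile of 98.6 in Lung met was near the 98.1 to 99.0 of the other tables. The log2 ratio was −0.52 in Her2, with means of 14666 and 10234, which falls short of the limit. It was 0.62 in BALB (2483 and 3814), 0.60 in SEAGN (1737 and 2637) and 0.29 in the AKR-named table (9771 and 11950). The SEAGN value, a ratio of 1.52, no longer passes when ratios are centred on the median of all genes.

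Of the other G1 cyclins and kinases, Ccnd2 and Cdk6, the cyclin D2 gene and a kinase that cyclin D partners, were also higher in C3Tag Lung mets, with log2 ratios of 1.10 and 0.90. Ccnd2 was the most changed of the list in the AKR-named table, at 2.35 (means of 314 and 1605), and lay between −0.07 and 0.51 in Her2, BALB and SEAGN. Ccne1, the cyclin E1 gene, was higher in SEAGN at 0.62. Of the 8 listed genes, Ccnd1 included, 0 were higher in Her2, 3 in C3Tag, 1 in BALB, 2 in SEAGN and 1 in the AKR-named table, and none was lower in any. Of all genes, 5.42%, 14.0%, 6.2%, 7.11% and 13.6% were higher in these tables, in that order.

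Downstream of the pocket proteins, E2F targets stood highest in C3Tag PT. The median PT percentile of the 20 listed targets, which include replication genes such as Mcm2 to Mcm7 and Pcna, was 96.0 in C3Tag, against 78.9 in Her2, 74.0 in BALB, 72.0 in SEAGN and 82.7 in the AKR-named table. All 19 targets found in every table had their highest PT percentile in C3Tag, beside 36.2% of the 12317 genes whose symbol occurs once in each table. Relative to reference genes all 19 were again highest there, beside 25.4% of these genes. For the members the count was 5 of 10 by percentile (Rbl1, Trp53, Cdkn2a, Cdkn2c and Myc) and 4 relative to the reference genes, where Trp53 drops out. The 10 E2F and DP factor genes had a median PT percentile of 76.7 in C3Tag and 49.2 to 55.2 elsewhere, and 9 of them were highest in C3Tag by percentile and 7 relative to the reference genes. E2f1 itself had a PT percentile of 82.3 in C3Tag, against 48.9 in Her2, 40.8 in BALB, 41.0 in SEAGN and 43.3 in the AKR-named table.

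**Figure D3:**
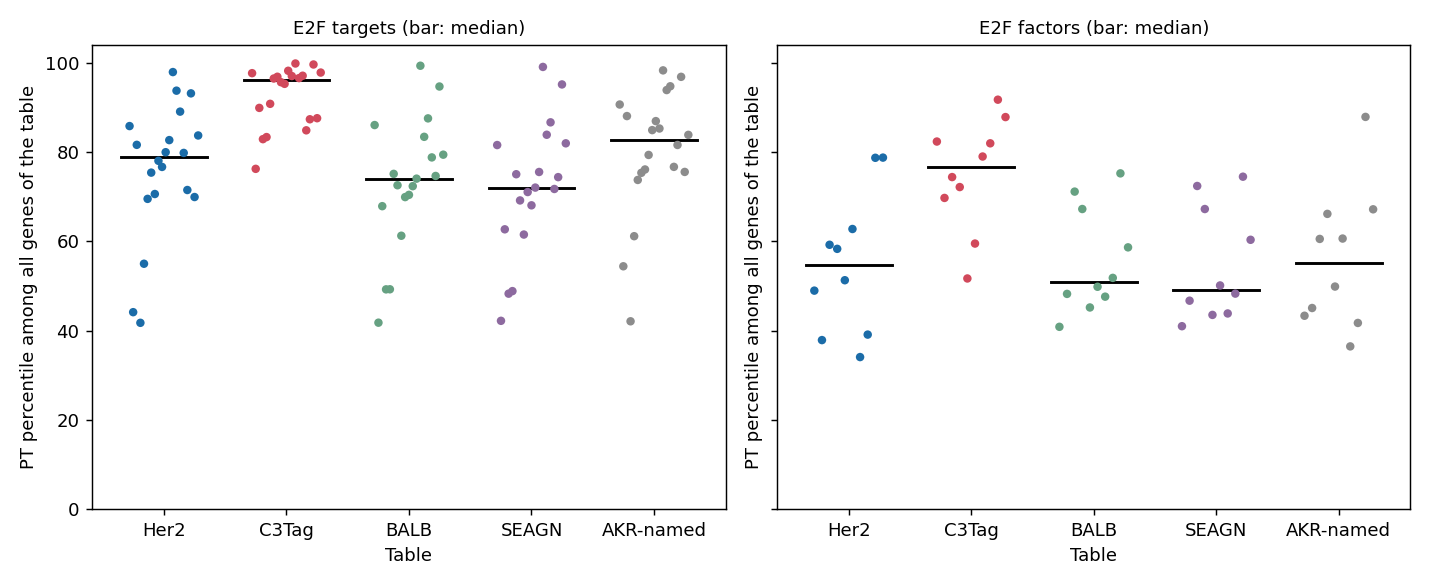
Each point is 1 gene, the vertical axis is its PT percentile among all genes of the table, and bars are medians. The E2F targets gather near a median of 96.0 in C3Tag and 72.0 to 82.7 elsewhere, and the E2F factors near 76.7 against 49.2 to 55.2.

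Between tissues the E2F targets moved little and not in 1 direction. None was higher and 4 were lower in C3Tag Lung mets, beside 14.0% and 5.61% of all genes. The 4 were Mki67 at −0.74, Top2a at −0.72, Ccna2 at −0.64 and Mcm5 at −0.61. In C3Tag and in Her2 all 20 had a log2 ratio below 0, with medians of −0.38 and −0.27, beside 51.2% and 49.7% of all genes with a ratio above 0, although no target in Her2 reached the limit. In BALB and SEAGN 1 target each was higher (Tk1 at 0.92 and Rrm2 at 0.65), beside 6.2% and 7.11% of all genes. None was lower there, and the medians were 0.08 and 0.22. The AKR-named table had none in either direction, a median of −0.11 and its largest difference in Mcm6, at −0.45. None of the 10 E2F factors passed the limit in any table. The largest differences were those of E2f2, from −0.39 in C3Tag to 0.44 in SEAGN, and of Tfdp2 at −0.27 in the AKR-named table.

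Trp53 (ENSMUSG00000059552, chr11:69580359-69591873, plus strand) had PT means of 1287 in Her2, 2557 in C3Tag, 594 in BALB, 736 in SEAGN and 2302 in the AKR-named table, with percentiles of 73.2, 89.2, 83.2, 88.0 and 85.0. The Lung met means were 1257, 2157, 636, 564 and 3032. No log2 ratio passed the limit (−0.03, −0.25, 0.10, −0.38 and 0.40 in the same order). The amount of Trp53 transcript says nothing of p53 protein, which is controlled mainly by degradation.

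Mdm2 (ENSMUSG00000020184, chr10:117688875-117710758, minus strand), both target and inhibitor of p53, was the steadiest member, with PT percentiles of 75.9 to 83.8. It was also the only one above 0 in all 5 tables. The PT and Lung met means were 1567 and 1641 in Her2, 1807 and 2096 in C3Tag, 614 and 748 in BALB, 531 and 717 in SEAGN, and 1504 and 1850 in the AKR-named table. The log2 ratios of 0.07, 0.21, 0.29, 0.43 and 0.30 all stayed short of the limit. The Cdkn1a ratio passed it in every table, but downward in Her2, at −0.84, and upward in the others.

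Other p53 targets were called higher most often in SEAGN and the AKR-named table, the tables with the largest Cdkn1a ratios. Of 27 listed targets, none of them a member, 0 were higher and 2 lower in Her2, 5 and 0 in C3Tag, 5 and 0 in BALB, 12 and 1 in SEAGN, and 11 and 1 in the AKR-named table. The higher calls in C3Tag were 18.5% of the list beside 14.0% of all genes, which is near the background. In BALB they were 18.5% beside 6.2%, in SEAGN 44.4% beside 7.11%, and in the AKR-named table they were 40.7% beside 13.6%. The medians were −0.04, 0.21, 0.30, 0.38 and 0.53, against medians of all genes between 0.00 and 0.03. Eda2r, a receptor of the TNF receptor family, was higher in 4 tables, with log2 ratios of 0.91 in C3Tag, 0.96 in BALB, 1.43 in SEAGN and 1.88 in the AKR-named table, and was at −0.49 in Her2. Zmat3, an RNA-binding protein, was higher in the same 4 tables, at 1.00, 0.61, 0.65 and 1.16, and at −0.38 in Her2.

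The targets with the largest difference in a table were Psrc1 in Her2 (−0.69), the death receptor Fas in C3Tag (1.14), the cell-death gene Pmaip1 in BALB (0.99) and Eda2r in SEAGN and the AKR-named table. Psrc1 was at −0.45 in C3Tag but at 0.66, 1.38 and 1.83 in BALB, SEAGN and the AKR-named table. C3Tag thus shared Eda2r and Zmat3 with the PyMT tables but not Psrc1. The cell-death gene Bax, Ccng1 and Phlda3, chosen after their values were seen, were called higher in SEAGN (0.71, 0.79 and 0.92) and the AKR-named table (0.91, 0.90 and 1.52), and Phlda3 in BALB also (0.74). The lower calls were Psrc1 and Phlda3 in Her2, Gadd45a in SEAGN (−0.82) and Ddb2 in the AKR-named table (−0.72).

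**Figure D4:**
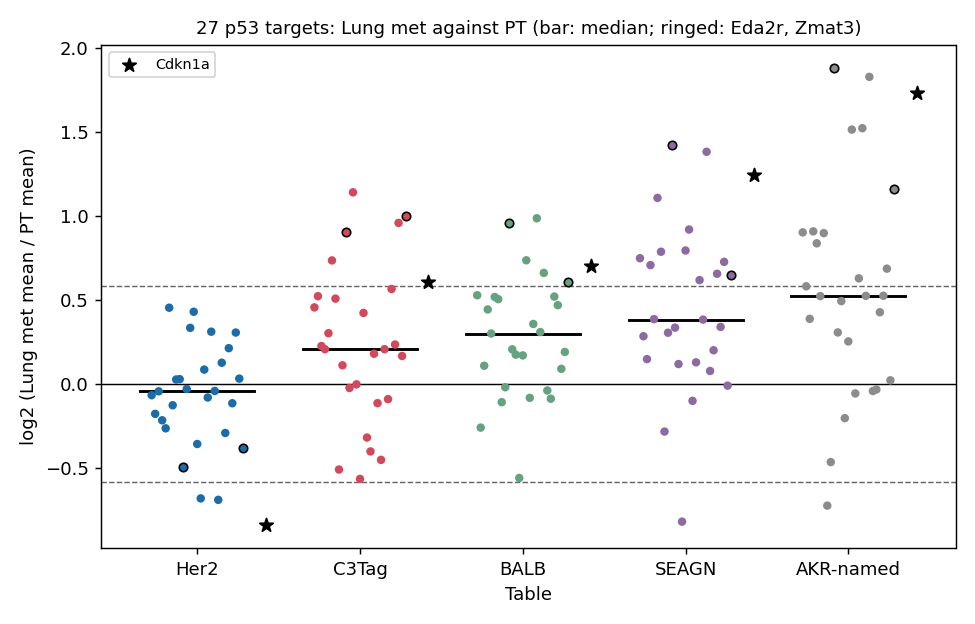
Each circle is 1 of 27 p53 targets, the vertical axis is the log2 ratio of the Lung met mean to the PT mean, bars are medians, stars are Cdkn1a, and dashed lines mark a ratio of 1.5. Medians run from −0.04 in Her2 to 0.53 in the AKR-named table, and the star lies above the median in every table but Her2.

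Of the 11 listed regulators of p53, with Mdm2 among them, 10 or 11 were in each table, with 1 higher and 0 lower in Her2, 0 and 1 in C3Tag, 1 and 0 in BALB, 2 and 0 in SEAGN, and 0 and 1 in the AKR-named table. All of these calls were Trp63 or Trp73, the p53 relatives. The shares of all genes called in each table are those given above for the members. Trp63, which also marks myoepithelial cells, was at 1.16 in Her2, −0.81 in C3Tag, 1.12 in SEAGN and −0.92 in the AKR-named table. The myoepithelial keratin gene Krt14 was at 1.09, −1.51, 0.80 and −0.14 in these tables and at 1.12 in BALB. Of the myoepithelial markers measured, Trp63 included, 2 of 4 were higher in Her2, 2 of 4 in BALB and 3 of 4 in SEAGN, with none lower, while 2 of 3 were lower in C3Tag and 1 of 3 in the AKR-named table, with none higher. Their summed means in PT and Lung met were 2175 and 2803 in Her2, 6085 and 2694 in C3Tag, 1487 and 2720 in BALB, 1001 and 2028 in SEAGN, and 5822 and 4693 in the AKR-named table, and their part in the Trp63 ratios was not tested. Trp73 was at 1.43 in BALB and 2.09 in SEAGN from low PT means of 7.01 and 3.96. Mdm4, the partner of Mdm2, lay between −0.53 and 0.01.

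Myc (ENSMUSG00000022346, chr15:61985391-61990374, plus strand) had its highest PT level in C3Tag, with a percentile of 98.8, against 84.9 in Her2, 92.6 in BALB, 91.8 in SEAGN and 80.4 in the AKR-named table. Relative to the reference genes C3Tag exceeded the other tables by 1.19 to 2.92 on the log2 scale. Per kilobase Myc was the highest member in C3Tag PT and the second highest, after Ccnd1, in each of the other 4 tables. The PT and Lung met means were 2271 and 2016 in Her2, 9372 and 8216 in C3Tag, 1150 and 1197 in BALB, 978 and 856 in SEAGN, and 1833 and 2143 in the AKR-named table. The log2 ratios of −0.17, −0.19, 0.06, −0.19 and 0.23 were all short of the limit.

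Around Myc, 11 or 12 of the listed Myc targets were in each table, with medians from −0.04 to 0.17. The only call in any table was Ldha in SEAGN, higher at 0.82. It made up 9.09% of the list there, beside 7.11% of all genes called higher. The shares of all genes called in the other tables are those given above for the members. In C3Tag their median PT percentile of 85.8 was close to the 85.9 of the AKR-named table, and 4 of 11 were highest in C3Tag, beside the 36.2% of all genes given above. Of the Myc network, the related genes Mycl or Mycn had the largest ratio in every table but Her2, where it was Mga at 0.35. Mycl was at −1.07 in C3Tag, 1.47 in BALB and 1.19 in SEAGN, and Mycn was at 1.02 in C3Tag and 1.58 in the AKR-named table. All their means in BALB, SEAGN and the AKR-named table where they were called were under 20.

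For the 2 members whose PT percentile ranged most, the genes with the most similar percentiles were sought over the 10 group means (PT and Lung met of 5 tables), among genes ranging at least as widely. For Cdkn2a, with 47 candidates, these were Igf2bp2 (r = 0.94), Clip4 (r = 0.93) and Arntl2 (r = 0.91). For Rbl1, with 699 candidates, they were Zgrf1 (r = 1.00), Pole (r = 0.99) and Mms22l (r = 0.99). The 10 points share tables and normalization, so each r is a description.

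Markers of surrounding tissue differed between Lung met and PT in the same tables, and their part in the ratios above was not tested. The shares of all genes called, against which their counts stand, are those given above for the members. Of 6 measured lung epithelium markers, 5 were higher in Lung met in Her2, BALB, SEAGN and the AKR-named table and 6 in C3Tag. Their summed mean went from 7371 in PT to 12571 in Lung met in Her2, from 2079 to 23558 in C3Tag, from 1782 to 3386 in BALB, from 1758 to 4772 in SEAGN and from 4858 to 30891 in the AKR-named table. Abca3 made up most of the PT sums in BALB (1731) and SEAGN (1709), where its log2 ratios were 0.36 and 0.54. The median log2 ratio of the 6 markers was 2.89 in Her2, 4.54 in C3Tag, 4.06 in BALB, 5.33 in SEAGN and 4.68 in the AKR-named table. Sftpc, Sftpb, Sftpa1 and Scgb1a1 are not among the genes analysed here. Endothelial markers were higher for 5 of 8 in Her2, 8 in C3Tag, 4 in BALB, 6 in SEAGN and 8 in the AKR-named table, with sums of 3464 and 5785, 2904 and 8540, 990 and 1578, 1092 and 1874, and 2517 and 8852. Fibroblast markers were lower for 7 of 8 in every table but C3Tag, where 4 were lower and 2 higher. The remaining marker was higher in the AKR-named table and was not called in Her2, BALB or SEAGN. The sums of the fibroblast markers were 25649 and 10444 in Her2, 44783 and 36984 in C3Tag, 13835 and 4341 in BALB, 19100 and 4631 in SEAGN, and 35039 and 12858 in the AKR-named table. Of 5 macrophage markers, 1 was higher and 1 lower in Her2, and 3 were higher in C3Tag, 2 in BALB, 2 in SEAGN and 3 in the AKR-named table with none lower, with median log2 ratios of −0.32, 0.61, −0.08, 0.22 and 0.72. T cell markers were higher for 2 of 5 in Her2, 1 of 3 in BALB, 1 of 4 in SEAGN and 5 of 7 in the AKR-named table with none lower, and in C3Tag 2 of 4 were lower and none higher. Only genes with a mean above 0 in both tissues were kept, so a marker absent from a tissue would not be seen here. The median log2 ratio of the endothelial markers was 0.67 in Her2, 1.44 in C3Tag, 0.62 in BALB, 0.74 in SEAGN and 1.71 in the AKR-named table. How lung and endothelial markers relate to the Cdkn1a and Cdkn2a ratios was not tested. Mammary luminal markers had a median PT percentile of 98.6 to 99.3, and Erbb2, the mouse gene matching the neu transgene, was at a PT percentile of 99.9 in Her2 against 78.1 to 91.2 elsewhere.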

How the data were processed

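Bulk RNA-seq covered 74 samples in 12 groups of model and tissue, which were taken from the sample titles. The authors' labels name STAR 2.7.8a, DESeq2 and the build mm39, and a total RNA kit with ribosomal depletion, whereas the methods name Partek Flow, an mRNA library, and mm10 in one place and mm9 in another. The authors ran Gene Specific Analysis for the Her2, C3Tag and Myc models and DESeq2 for PyMT-F1. The signal used here is the least-squares mean of normalized counts per gene and tissue, as deposited by the authors, with the normalization and the strand setting of the counting not given in the sources used here. The deposited p-values, FDR values, ratios and fold changes are the authors' own comparisons and gave none of the values here. Fold changes were looked at only for the 3 genes that raised the doubt about the strain of the AKR-named table. The Myc table, which holds only p-values and FDR values, therefore gave no value, and the choice of Myc genes by p-value was not applied. Depth per sample is unknown, and no interval or test was possible.

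From the means were computed the log2 ratio of Lung met to PT, the percentile among all genes of a table (share of genes with a lower mean), the mean per kilobase of exon (GENCODE M21, GRCm38; 82.5% of genes in BALB and SEAGN had a length, matched by symbol, and at least 99.8% elsewhere) and the log2 level relative to 8 reference genes. Rows without a mean above 0 in both tissues were left out (0 in Her2, 1 in C3Tag, 93 in BALB, 53 in SEAGN and 116 in the AKR-named table). Tables were normalized separately, so levels set across them are descriptions. The calculation was tested on simulated data (Python 3.11.15, pandas 2.3.3, numpy 2.4.6). Named beside the members are, of each pathway list, genes past the ratio of 1.5 in 1 direction in at least 4 tables and the gene with the largest ratio in each table with a higher mean of at least 10. Some list genes are named outside this rule, among them E2f1, Cdk6, Mdm4, Cdkn1b and Cdkn2d. Members and lists were chosen with earlier results of these data known. Gene positions and overlaps are from GENCODE M21, and promoter windows from RefSeq on GRCm38.p6.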

Additional observations from a re-analysis of the deposited data

How the results depend on the processing

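With a ratio of at least 2 in place of 1.5, the number of members called went from 2 to 1 in Her2 and in C3Tag, from 2 to 0 in BALB and from 4 to 2 in the AKR-named table, since the limit is stricter by construction. Centring on the median ratio, a pseudocount of 1 and a minimum of 10 for the higher mean left every count of members called where it was, apart from SEAGN, where centring took Ccnd1 out and left 2 of 3. The largest shift of a member's log2 ratio was 0.034 under centring and 0.031 under the pseudocount. The number of members highest in C3Tag PT was 5, and was 5 among shared symbols, 4 relative to reference genes and 6 per kilobase. Single PT percentiles moved by 5 points or more for 27 of 50 values among shared symbols and 24 of 50 per kilobase. No paired analysis was possible because the tables hold group means only, and leaving out a replicate was not run for the same reason. The lack of single-sample values, and of depth, is the main limit of every ratio given here.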
